A study of Homo sapiens with 8 samples.

Results

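The ZNF genes are the human genes whose symbol is ZNF followed by a number, and they were taken here when their mean level over 8 libraries of Huh7 cells was at least 3 FPKM. FPKM counts the fragments of a gene per length of its transcript and per number of fragments mapped in the library, so levels can be set side by side between genes. Between libraries it also depends on the scaling and, as shown further on, moved with GC content. Of 17076 genes in the tables, 465 had such a symbol, 187 of them passed the limit and 278 lay below it. These 187 genes were thus chosen by their measured FPKM, and their levels are given as a description. ZNF564 (2.94 FPKM), ZNF865 (2.96) and ZNF646 (2.96) lay just under the limit, and ZNF623, ZNF280D and ZNF256 (each 3.03) just over it.

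Huh7 cells, a long-used line that grew out of a human liver cancer, were transfected by lipofection in 4 groups of 2 libraries each. The siControl group received scrambled siRNA, siUPF1 received siRNA to UPF1, MYC received the control vector of the MYC tag, and MYC-UPF1 received a vector for MYC-tagged UPF1. UPF1 is the RNA helicase at the centre of nonsense-mediated mRNA decay, and the study asked whether changing its amount alters the growth of liver cancer cells through that pathway. Each treated group has its own control, the 2 comparisons share no library, and the labels do not say that the libraries of a group came from separate cultures, so the p-values may measure technical spread only.

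UPF1 itself was at 44.5 and 47.4 FPKM in siControl and at 20.7 and 21.9 in siUPF1. It stood at 45.1 and 57.4 FPKM in MYC and at 2835 and 2484 in MYC-UPF1. The log2 difference was -1.07 (SE 0.0928, limma, Benjamini-Hochberg adjusted p = 0.0308) after the siRNA and 5.68 (adjusted p = 8.91e-09) with the vector. The hepatocyte and Huh7 markers were high in all 8 libraries, with ALB at 6550 to 8371 FPKM, AFP at 11093 to 12505 and HNF4A at 38.5 to 49.0. Of 6 markers of other cells, PTPRC, VWF and COL1A1 were not listed, CD68 reached 3.84 FPKM, PECAM1 0.796 and COL3A1 0.468.

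Most ZNF proteins bind DNA through a row of C2H2 zinc fingers, each a short fold in which cysteines and histidines hold a zinc ion. Many also carry a KRAB domain, which recruits the co-repressor TRIM28, and with it the methyltransferase SETDB1 and heterochromatin proteins, to silence retroelements. These KRAB genes arose by repeated duplication and lie in clusters, above all on chromosome 19.

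All 187 symbols matched GENCODE on the GRCh37 build. The annotation called 183 of them protein-coding, and ZNF271P, ZNF767P, ZNF542P and ZNF731P pseudogenes or long non-coding RNAs. A KRAB domain was found in 97 of the 183 coding members (53.0%), against 1.87% of 19760 coding genes. At least 3 C2H2 patterns stood in the reading frame of 167 members, against 3.57% of coding genes, with a median of 9 and a highest count of 36 in ZNF142. A SCAN domain, through which such proteins pair, was found in 11 members, 6 of which also had KRAB. The members lay on 20 chromosomes, and 75 of them (40.1%) lay on chromosome 19, where 7.27% of coding genes lie. ZNF330, ZNF703 and ZNF718 had no C2H2 pattern in the chosen transcript, and their other transcripts were not searched. Several members act on RNA or ribosomes.

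A sequence that recurs in these transcripts is the stretch that codes for the linker between neighbouring fingers. It is printed because it shows how alike many members are over this short stretch. The linker motif was found 838 times in 139 of the 183 coding members. Its 4 commonest spellings, read 5′ to 3′ on the coding strand, follow, with capitals at the positions where the 4 differ.
ZNF721 linker: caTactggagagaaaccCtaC
ZNF761 linker: caTactggagagaaaccTtaC
ZNF700 linker: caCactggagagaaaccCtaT
ZNF91 linker: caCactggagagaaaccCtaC
The spelling named after ZNF721 occurred 95 times (11.3% of linkers) in 25 members. It stands 8 times among the 16 linkers of ZNF721 itself, for example at chr4:437509-437529 on the minus strand. The spelling shown for ZNF761 occurred 46 times in 18 members, for example at chr19:53958635-53958655 on the plus strand. The one shown for ZNF700 occurred 32 times in 16 members, for example at chr19:12059401-12059421 on the plus strand. That of ZNF91 occurred 16 times in 11 members, for example at chr19:23544899-23544919 on the minus strand. Among the 19760 coding genes, these 21 bases occur in the transcripts of 62, 59, 66 and 27 genes, in the same order. All are from the GRCh37 genome.

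Longer stretches were mostly unique. In 129 members no window of 100 bases recurred exactly in the transcript of another gene, and in 20 members more than 10% of the windows did. The highest shares were 96.1% in ZNF23, 80.5% in ZNF410, 48.3% in ZNF263 and 47.7% in ZNF280D, so the reads of these genes may have been divided with another gene. The spans of 3 pairs of members overlapped on the same strand, ZNF28 with ZNF468, ZNF580 with ZNF581, and ZNF586 with ZNF587B, and their values may hold each other's reads.

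The transcripts of the ZNF genes were poor in G and C. Their median GC content was 43.7% (33.2% to 70.4%), against 48.3% over all matched genes, with 42.8% in the KRAB members and 45.9% in the other coding members. The members were divided by GC content into 62 low-GC genes (33.2% to 40.7%), 63 mid-GC genes (41.0% to 48.8%) and 62 high-GC genes (49.0% to 70.4%). This division is used below because library values moved with it.

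The ZNF genes were expressed at low levels. Their median over the 8 libraries was 5.42 FPKM, 109 were at 5 or more, 31 at 10 or more and 8 at 20 or more, and together they made up 0.297% to 0.406% of the summed FPKM of a library. KRAB members had a median of 5.30 FPKM and the other coding members 5.80. Only 8 of the 31 members at 10 FPKM or more carried KRAB, the highest of them ZNF789 at 17.6 FPKM.

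The 10 highest members were led by ZNF444, a SCAN factor on chromosome 19, at 57.6 FPKM. ZNF207, which binds microtubules and helps load the checkpoint protein BUB3 at kinetochores, followed at 55.5, and ZNF787 at 41.4. ZNF593, a nucleolar protein with a single C2H2 pattern, was at 34.3. ZNF146, whose protein is made almost wholly of fingers, was at 27.2, ZNF664 at 24.7, ZNF511 at 24.0, the pseudogene ZNF731P at 23.3, ZNF655 at 19.9 and ZNF428 at 19.5.

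ZNF444 was at 49.4 and 51.8 FPKM in siControl, 49.8 and 65.8 in siUPF1, 58.7 and 67.0 in MYC, and 62.0 and 56.3 in MYC-UPF1. ZNF207 was at 53.7 and 53.8 in siControl, 56.2 and 42.2 in siUPF1, 59.9 and 58.2 in MYC, and 57.0 and 63.3 in MYC-UPF1. Neither gene separated its treated from its control libraries in either comparison, and in both the spread within siUPF1 was wider than that within siControl. The order of the leading pair is therefore not settled by these libraries.

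Across the 8 libraries the ratio of a member's highest to its lowest FPKM was 1.51 at the median, from 1.13 in ZNF346, a protein that binds double-stranded RNA, to 3.02 in ZNF69. It reached 2 in 21 members, of which 15 were low-GC, 4 mid-GC and 2 high-GC genes. ZNF675, a KRAB gene, went from 6.78 and 7.36 FPKM in siControl and 7.15 and 6.54 in siUPF1 to 4.64 and 3.41 in MYC and 3.06 and 5.19 in MYC-UPF1. In ZNF44, another KRAB gene, the siRNA libraries lay at 9.58 to 13.3 FPKM and the vector libraries at 5.46 to 5.81. Both genes were lower in all 4 vector libraries than in all 4 siRNA libraries.

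**Figure D1:**
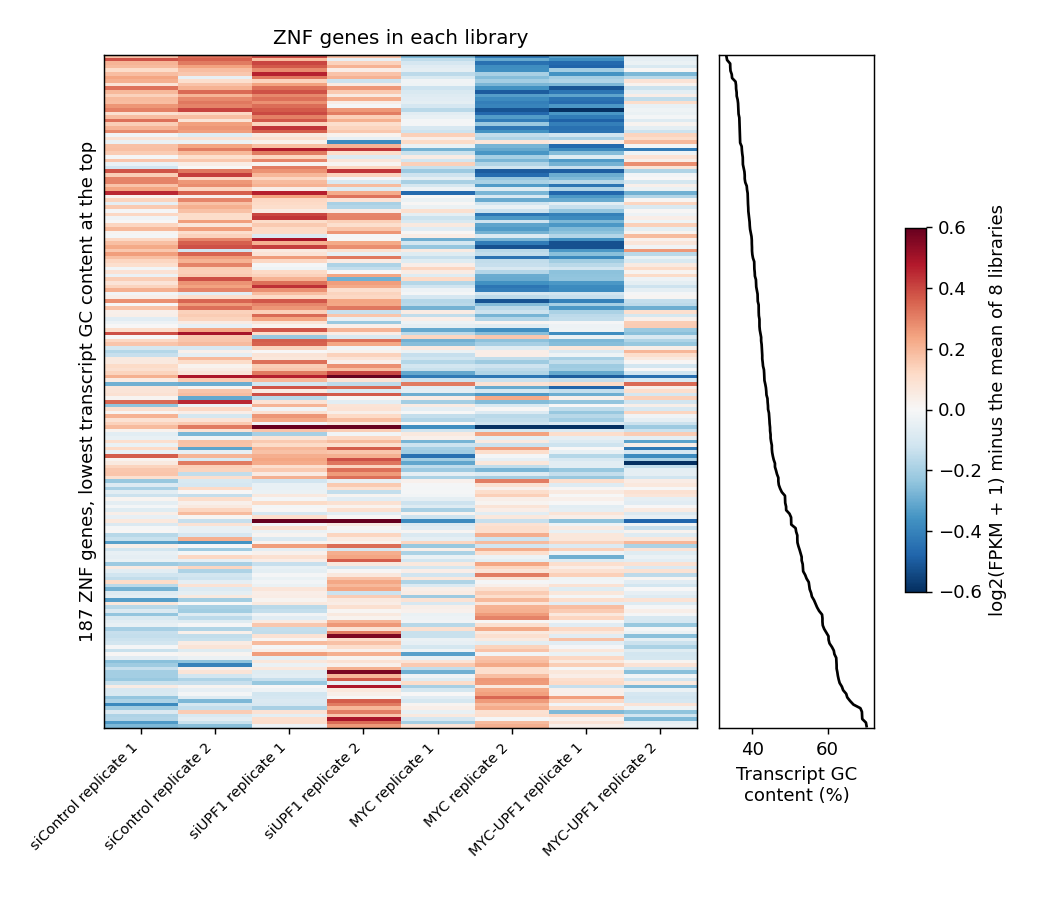
Heat map of the 187 ZNF genes (rows, lowest transcript GC content at the top) in the 8 libraries (columns), coloured by log2(FPKM + 1) minus the gene's mean over the libraries, with the transcript GC content in percent beside it. The low-GC rows at the top are red in the siRNA libraries and blue in MYC replicate 2 and MYC-UPF1 replicate 1, while many of the high-GC rows at the bottom are red in siUPF1 replicate 2.

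Depletion of UPF1 was the first comparison, and it asks which ZNF transcripts differ when the decay factor is low. A gene was called at an unadjusted p under 0.05 in limma on log2(FPKM + 1), and the adjusted p stands beside it. Of the 187 ZNF genes 32 were called (17.1%, against 21.5% of all 13535 genes tested), 27 higher (against 16.0% of all genes) and 5 lower (against 5.51%). None passed an adjusted p of 0.05 in this main fit, which 0.0369% of all genes did, and the smallest adjusted p was 0.0623. ZNF genes passed in some other fits. At a mean of at least 5 FPKM 2 passed (316 of 7898 genes did). In a fit of all 8 libraries 1 passed (368 of 13535 genes did). With the libraries paired crosswise as a block, a pairing chosen after seeing the data, 1 passed (90 of 13535 genes did). Some also passed when a library was left out, and fits with a GC trend removed are given below. The called differences ran from 0.22 to 0.69 in size on the log2(FPKM + 1) scale, which understates changes of low genes. In such bulk libraries fewer cells with a transcript and less of it in each cell cannot be told apart.

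The split of 27 higher and 5 lower shifted with the scaling. It was 19 and 9 with each library centred on its median and 14 and 11 after quantile normalization. Both siUPF1 libraries lay above both siControl libraries in 72 members (37.5% of all genes did so) and below both in 20 (18.5% of all genes). The median difference of the 187 was 0.081, beside 0.057 over all genes tested. The counts rested on single libraries: 12 members were called without siControl replicate 1, 10 without siControl replicate 2, 64 without siUPF1 replicate 1 and 40 without siUPF1 replicate 2, where the lone library was assumed to vary like the other group. The share of ZNF genes called was not above that of the whole table in the main fit, nor in any of these 4 fits, where 10.6%, 12.6%, 43.6% and 21.6% of all genes were called.

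The gene that rose most was ZNF875, also known as HKR1, a KRAB gene with 13 C2H2 patterns at chr19:37803739-37860267 on the plus strand. Its values were 5.86 and 4.97 FPKM in siControl and 9.16 and 9.53 in siUPF1. It rose by 0.69 (SE 0.104, limma, Benjamini-Hochberg adjusted p = 0.0623). Named rises were chosen among called genes with both siUPF1 libraries above both controls, so that order is no further support. In ZNF875 the siUPF1 libraries also lay close to each other. In the vector libraries ZNF875 was at 4.05 and 4.98 FPKM in MYC and 4.54 and 3.73 in MYC-UPF1, groups that overlapped.

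ZNF69, also a KRAB gene of chromosome 19 with 13 C2H2 patterns (chr19:11998597-12025144, plus strand), was at 10.5 and 11.5 FPKM in siControl and 14.8 and 15.7 in siUPF1. It rose by 0.44 (SE 0.0954, adjusted p = 0.0884 in limma). The spread was narrow in each of these groups. The 4 vector libraries held 5.18 to 7.66 FPKM, all below the siRNA libraries. ZNF875 and ZNF69 were the only members with an adjusted p under 0.1 in the main fit.

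Of the other 8 large rises, those of ZNF852 and ZNF266 were in KRAB genes. ZNF852, on chromosome 3, was at 11.97 and 8.56 FPKM in siControl and 12.7 and 14.3 in siUPF1, a rise of 0.38 (SE 0.153, adjusted p = 0.219 in limma). ZNF266, on chromosome 19, was at 3.26 and 2.94 FPKM in siControl and 3.95 and 4.49 in siUPF1, a rise of 0.35 (SE 0.103, adjusted p = 0.143 in limma), and it lost the call without siControl replicate 2 at 0.29. ZNF219, with 9 C2H2 patterns and no KRAB, was at 3.50 and 4.19 FPKM in siControl and 5.12 and 6.20 in siUPF1, a rise of 0.46 (SE 0.122, adjusted p = 0.123 in limma), and it lost the call without siControl replicate 1 at 0.36. In ZNF852 the 2 controls lay far apart, the higher of them close under the siUPF1 libraries, and without siControl replicate 2 its difference was 0.16 and was no longer called. It was also not called after quantile normalization (0.31) or median centring (0.34), with no FPKM minimum, or in the fit of all 8 libraries.

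The remaining rises were in coding members without KRAB. ZNF787 went from 33.8 and 34.4 FPKM in siControl to 40.1 and 49.3 in siUPF1, a difference of 0.37 (SE 0.117). ZNF428, which holds a single C2H2 pattern, went from 17.3 and 17.3 to 20.4 and 28.8, a difference of 0.47 (SE 0.155). ZNF580 went from 4.30 and 4.73 to 5.43 and 7.41, a difference of 0.42 (SE 0.140). The adjusted p in limma was 0.154, 0.166 and 0.170 in the same order. In these genes siUPF1 replicate 2 lay far above replicate 1, so the size of the rise depended on that library: without it the differences were 0.23 for ZNF787, 0.23 for ZNF428 and 0.22 for ZNF580. ZNF428 kept its call in every fit, ZNF787 lost it without either siControl library (0.36 and 0.38) and ZNF580 without siControl replicate 1 (0.36) and after quantile normalization (0.36).

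ZNF579 showed the same pattern, with 3.49 and 3.24 FPKM in siControl and 3.82 and 5.57 in siUPF1. Its difference of 0.37 (SE 0.151) fell to 0.14 and out of the call without siUPF1 replicate 2, and it was not called at 0.33 without siControl replicate 2, at 0.30 after quantile normalization, at 0.33 after median centring, with no FPKM minimum, or in the fit of all 8 libraries. ZNF740, by contrast, had close values in both groups, 3.51 and 3.41 FPKM in siControl and 4.73 and 4.74 in siUPF1. Its difference was 0.36 (SE 0.0902, adjusted p = 0.112 in limma), and it lost the call only without siControl replicate 2, where it was 0.35. The transcripts of ZNF787, ZNF428, ZNF219, ZNF580 and ZNF579 have a GC content of 60.2% to 70.4%, and that of ZNF740 is 52.0%.

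The other 17 genes called higher were ZNF777, ZNF263, ZNF468, ZNF160, ZNF496, ZNF672, ZNF274, ZNF134, ZNF738, ZNF695, ZNF841, ZNF85, ZNF75A, ZNF76, ZNF28, ZNF581 and ZNF586, with differences of 0.22 to 0.34. Apart from ZNF263 and ZNF274 they are listed here after their values were seen.

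Of the 5 members that fell, ZNF367, with 2 C2H2 patterns and no KRAB, fell most. It was at 8.47 and 9.22 FPKM in siControl and 6.92 and 6.16 in siUPF1, a difference of -0.39 (SE 0.101, adjusted p = 0.119 in limma). ZNF189, a KRAB gene on chromosome 9, was at 10.1 and 10.96 FPKM in siControl and 8.16 and 7.72 in siUPF1, a difference of -0.37 (SE 0.0947, adjusted p = 0.118 in limma). In both genes the groups were apart by more than the libraries of a group were, and in both the call was lost without siControl replicate 2, at -0.33 and -0.31.

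ZNF680, a KRAB gene with a GC content of 33.3%, was at 4.83 and 4.74 FPKM in siControl and 4.07 and 3.31 in siUPF1 (difference -0.31, SE 0.110). ZNF655 was at 23.7 and 25.4 FPKM in siControl and 20.9 and 19.03 in siUPF1 (difference -0.29, SE 0.0976). The long non-coding ZNF542P was at 20.7 and 23.8 FPKM in siControl and 19.1 and 16.8 in siUPF1 (difference -0.29, SE 0.112). In all 5 genes that fell siUPF1 replicate 2 was the lower siUPF1 library. Without it the difference was -0.19 in ZNF680 and -0.21 in ZNF542P, and neither was called. The calls of ZNF655 and ZNF680 were also lost without either siControl library (-0.33 and -0.24, and -0.29 and -0.32), and that of ZNF542P without siControl replicate 2 (-0.20). In each of the 5 genes both MYC libraries lay below both siControl libraries as well, with group means of 2.83 against 4.78 FPKM in ZNF680 and 5.36 against 8.84 in ZNF367.

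**Figure D2:**
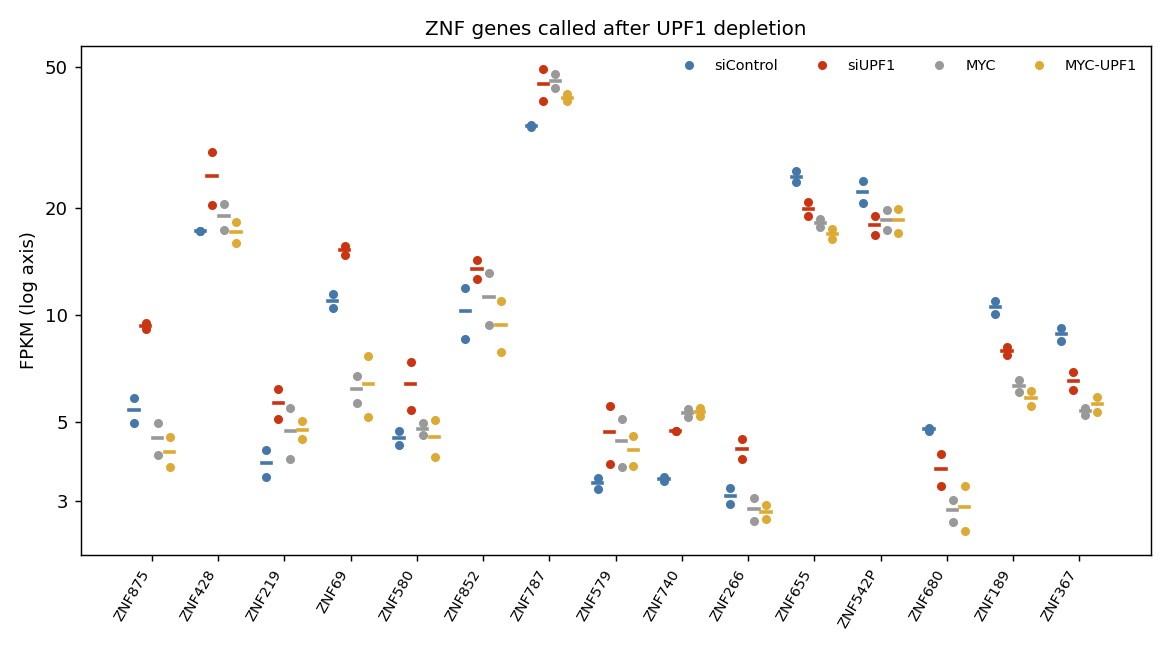
FPKM on a log axis of the 10 ZNF genes that rose most and the 5 that fell after UPF1 depletion, with a point for each of the 2 libraries of siControl, siUPF1, MYC and MYC-UPF1 and a bar at each group mean. The red siUPF1 points lie above both blue siControl points in ZNF875 through ZNF266 and below them in ZNF655 through ZNF367. The choice of these genes required this. In ZNF428, ZNF580 and ZNF579 the siUPF1 points are far apart.

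Divided by structure, KRAB members and other coding members had nearly equal medians in the main fit. Of 97 KRAB members 18 were called, 16 higher and 2 lower, with a median difference of 0.082, and of 86 coding members without KRAB 13 were called, 11 higher and 2 lower, with a median of 0.082. Among 11 SCAN members ZNF263, ZNF496 and ZNF75A were called, all higher, with a median of 0.15, and the 4 non-coding members had a median of -0.038. Of the 75 members on chromosome 19, 17 were called higher and 1 lower, with a median of 0.097, and of the 112 on other chromosomes 10 were called higher and 4 lower, with a median of 0.055. ZNF genes under the limit gave a like picture: of 231 tested 33 were called higher and 7 lower, with a median of 0.080. The shares called ran from 12.5% on other chromosomes through 18.6% of KRAB members to 24.0% on chromosome 19 and 27.3% of the SCAN members, with 1 of the 4 non-coding members called, beside 21.5% of all genes tested.

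Divided by GC content, the medians were farther apart. Of the 62 low-GC members 5 were called higher and 3 lower, with a median of 0.0013. Of the 63 mid-GC members 8 were called higher and 2 lower, with a median of 0.097. All 14 calls among the 62 high-GC members were higher, with a median of 0.164. The shares called were 12.9%, 15.9% and 22.6% in the same order. Of all genes tested 21.5% were called, 16.0% higher and 5.51% lower. Across the 187 members the Spearman correlation of the difference with GC content was 0.489, beside 0.553 over 12831 genes of the whole table. The slope was thus present over the whole table as well.

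The slope among the members was steeper with siUPF1 replicate 2. Set against siControl replicates 1 and 2, the differences of siUPF1 replicate 1 had Spearman correlations of 0.065 and 0.048 with GC content over the members, and those of siUPF1 replicate 2 had 0.629 and 0.602. Over all genes these correlations were 0.285 and 0.293 for replicate 1 and 0.618 and 0.623 for replicate 2. From siUPF1 replicate 1 to 2 the median difference was -0.13 in low-GC members and 0.11 in high-GC members, and from siControl replicate 1 to 2 it was 0.068 and 0.038. The fit was therefore run again on values from which the dependence on GC content and transcript length, estimated over all genes of a library, had been taken away.

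After that removal 62 ZNF genes were called after depletion, 56 higher and 6 lower (33.2%, against 23.3% of all genes in that fit), with a median of 0.11. Of the 32 first called 22 were still called. Of the KRAB members 40 of 97 were called, 38 of them higher, and of the other coding members 21 of 86. The median difference was then 0.144 in the KRAB members and 0.057 in the other coding members. The calls moved to 25 low-GC, 28 mid-GC and 9 high-GC members. Among the members the differences then ran against GC content (Spearman -0.341, beside -0.017 over all genes), so the ZNF genes sloped the other way.

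In that fit 7 ZNF genes passed an adjusted p of 0.05 in limma, all of them KRAB genes of chromosome 19 and all higher. Their share of 3.74% was close to the 3.66% of all 12831 genes in that fit. With the replicate block added 4 ZNF genes passed, beside 287 of all genes. With that removal and the libraries paired crosswise as a block, a pairing chosen after seeing the data, 15 passed, beside 756 of all genes. The 7 genes were ZNF875 (adjusted p = 0.0135), ZNF69 (0.0248), ZNF468 (0.0265), ZNF85 (0.0300), ZNF738 (0.0313), ZNF28 (0.0407) and ZNF160 (0.0415). ZNF468 was at 4.80 and 5.36 FPKM in siControl and 6.92 and 6.23 in siUPF1. ZNF85 was at 5.41 and 5.53 FPKM in siControl and 6.90 and 6.43 in siUPF1. ZNF160 was at 3.19 and 3.04 FPKM in siControl and 4.17 and 4.06 in siUPF1. In these 3 genes, also called in the main fit, both siUPF1 libraries lay above both controls. The groups stood apart in all 32 members called there. ZNF738, at 6.18 and 6.78 FPKM in siControl, had siUPF1 values of 8.62 and 7.50, farther from each other than the lower was from the controls. ZNF28 overlaps ZNF468, and 24.1% of the windows of ZNF738 are shared with another gene, so these rises may not all be independent. The 10 calls that were lost were 8 rises, all of high-GC members, and 2 falls. The rises were those of ZNF787, ZNF219, ZNF580 and ZNF579, at 0.09, 0.16, 0.17 and 0.13, and of ZNF777, ZNF672, ZNF76 and ZNF581, at 0.07 to 0.13. The falls of ZNF680 and ZNF542P stood at -0.07 and -0.17.

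**Figure D3:**
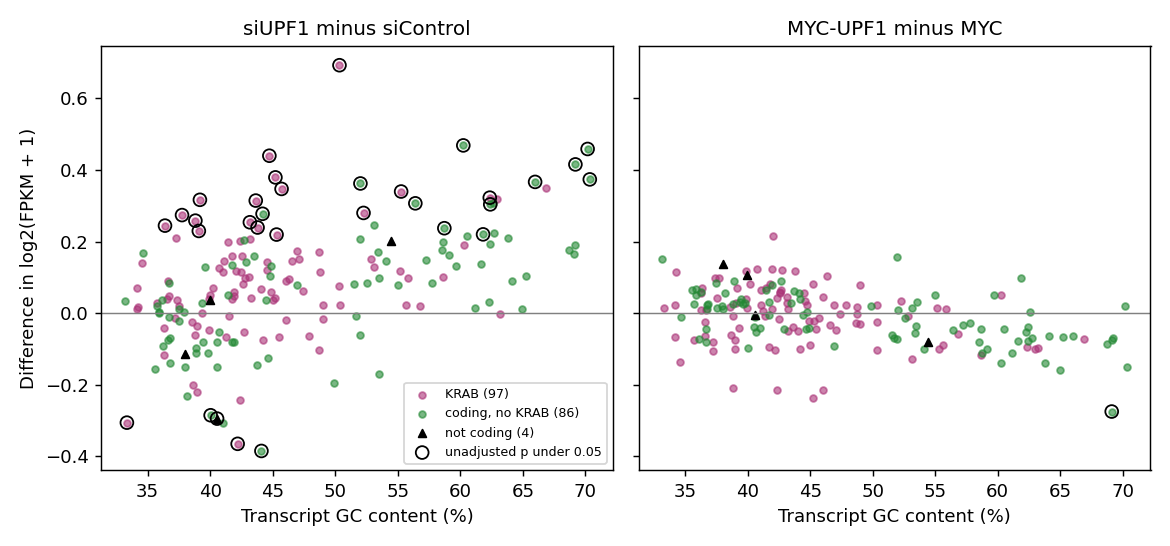
Difference in log2(FPKM + 1) of each of the 187 ZNF genes (vertical axis) against its transcript GC content in percent (horizontal axis), for siUPF1 minus siControl (left) and MYC-UPF1 minus MYC (right), with 97 KRAB genes, 86 coding genes without KRAB and 4 non-coding genes marked apart and calls at an unadjusted p under 0.05 ringed. The points rise to the right on the left side (Spearman 0.489) and sink slightly on the right side (-0.385), where ZNF524 is the single ringed gene.

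With MYC-UPF1 in excess few ZNF genes were called, and the count depended on how the libraries were paired. Without pairing, of the 187 members 1 was called (0.535%, against 1.43% of all 13251 genes tested), and it was lower (against 0.807% of all genes), while none was higher (against 0.619%). None passed an adjusted p of 0.05. Of all 13251 genes only 1 did (0.00755%), and it was UPF1 itself, the gene on the vector. The called gene was ZNF524, with 4 C2H2 patterns and a GC content of 69.1%, at 3.19 and 3.62 FPKM in MYC and 2.60 and 2.67 in MYC-UPF1. Its difference was -0.28 (SE 0.122, adjusted p = 0.999987 in limma). The call was lost when any of the 4 libraries was left out, with differences from -0.34 to -0.21, and the count of called members ran from 0 without MYC replicate 2 or MYC-UPF1 replicate 2 through 2 without MYC-UPF1 replicate 1 to 4 without MYC replicate 1. The shares of all genes called in these fits were 1.66%, 1.70%, 3.55% and 5.87%, in each case above that of the members.

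Both MYC-UPF1 libraries lay above both MYC libraries in 8 members (8.88% of all genes did so) and below both in 16 (11.8% of all genes). The median difference was -0.004, beside -0.014 over all genes. Low-GC, mid-GC and high-GC members had medians of 0.020, 0.011 and -0.062. No member was called in both comparisons.

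The libraries of these groups were not alike in pairs of equal number. Over the 187 members the correlation of log2(FPKM + 1) was 0.964 between the MYC libraries and 0.961 between the MYC-UPF1 libraries, but 0.991 between MYC replicate 1 and MYC-UPF1 replicate 2 and 0.992 between MYC replicate 2 and MYC-UPF1 replicate 1. From MYC replicate 1 to 2 the median difference was -0.23 in the low-GC and 0.17 in the high-GC members, with 4 of 62 and 59 of 62 genes higher. From MYC-UPF1 replicate 1 to 2 the order was turned, with medians of 0.30 and -0.095 and 61 of 62 and 13 of 62 genes higher. The Spearman correlation with GC content was 0.803 and -0.797 in these 2 differences, beside 0.702 and -0.644 over all genes, and -0.010 between the siControl libraries.

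A difference of at least 0.3 between libraries of the same group was seen in 36 members in MYC, 40 in MYC-UPF1, 17 in siUPF1 and 6 in siControl. Between MYC-UPF1 replicate 1 and MYC replicate 2 it was seen in 2 members, and between MYC-UPF1 replicate 2 and MYC replicate 1 in 1. With the GC and length trend taken away 3 members were called (1.60%, against 2.85% of all genes), all lower. With the libraries paired crosswise as a block, a pairing chosen after seeing the data, 11 members were called (5.88%, against 9.26% of all genes), 2 higher and 9 lower.

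**Figure D4:**
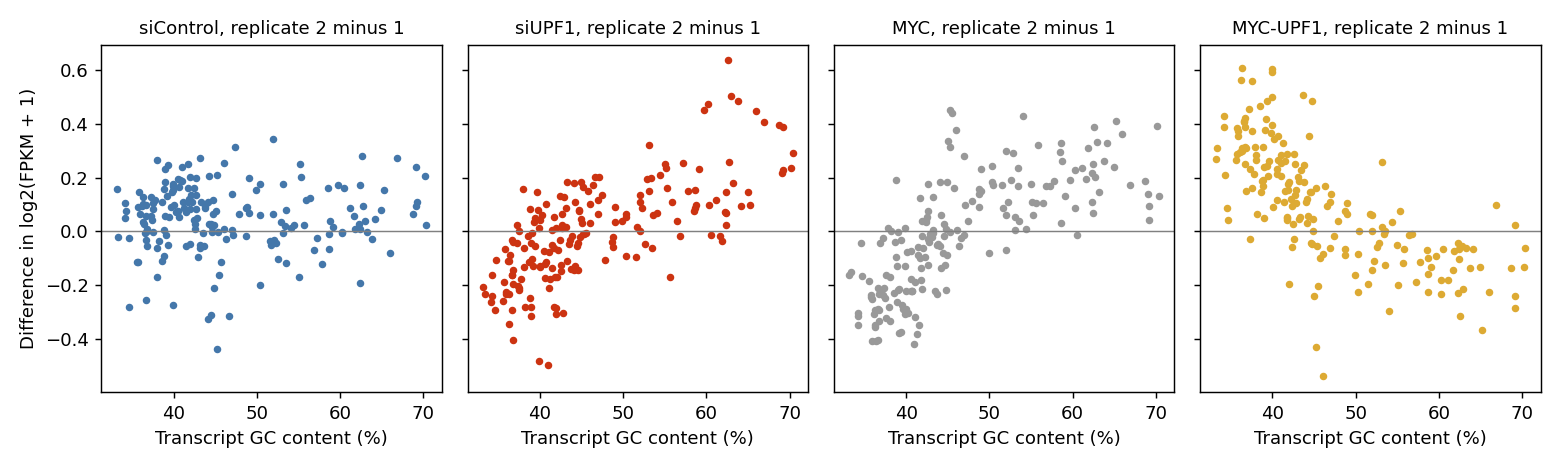
Difference in log2(FPKM + 1) between replicate 2 and replicate 1 of each group (vertical axes) for the 187 ZNF genes against transcript GC content in percent (horizontal axes). The siControl points show no slope (Spearman -0.010), those of siUPF1 (0.722) and MYC (0.803) rise with GC content, and those of MYC-UPF1 fall (-0.797).

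The effects of depletion and overexpression were also set against each other in a fit of all 8 libraries. No ZNF gene passed an adjusted p of 0.05 for the difference between the effects in limma (0.0224% of all genes did), and 15 passed an unadjusted p of 0.05 (15.2% of all genes did), 14 of them with the depletion effect higher. The smallest adjusted p was 0.152, in ZNF875.

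The 4 siRNA libraries could be compared with the 4 vector libraries only as a description, since the kind of nucleic acid delivered and any difference in handling cannot be told apart. In 72 members (38.5%, against 21.4% of all genes tested) all 4 siRNA libraries were higher than all 4 vector libraries, and in 13 (6.95%, against 6.96%) all were lower. The median difference was 0.17, beside 0.090 over all genes. It held for 40 of 62 low-GC members (64.5%), 29 of 63 mid-GC members (46.0%) and 3 of 62 high-GC members (4.84%), and for 48 of 97 KRAB members against 22 of 86 other coding members. The same libraries differ from each other along GC content within groups, as given above.

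Members with a known role were read from a list of 27, of which 2 were called after depletion (7.41%, against 21.5% of all genes) and none with MYC-UPF1 (against 1.43%). The called pair were ZNF263, at 4.57 and 5.40 FPKM in siControl and 6.15 and 6.995 in siUPF1 (difference 0.34, SE 0.112), and ZNF274, at 9.33 and 9.03 in siControl and 10.995 and 11.7 in siUPF1 (difference 0.28, SE 0.0916). ZNF274 guides SETDB1 to the ends of other ZNF genes. Both had their siUPF1 libraries above their controls, and the groups stood apart in all 32 called members. Without siControl replicate 1 neither was called, at 0.24 and 0.30, and without siControl replicate 2 ZNF274 was not called at 0.26.

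Members that act on ribosomes and RNA did not pass the test. ZNF598, the ubiquitin ligase that marks collided ribosomes, was at 13.7 and 14.6 FPKM in siControl and 13.5 and 15.1 in siUPF1, values that overlapped. ZNF622, a maturation factor of the large ribosomal subunit, was at 11.7 and 11.6 in siControl and 12.4 and 15.8 in siUPF1 (difference 0.25, SE 0.123). ZNF638, which brings the HUSH silencing complex to unintegrated retroviral DNA, was at 16.03 and 17.1 in siControl and 17.3 and 19.2 in siUPF1. ZNF326, part of the DBIRD complex that links transcription and splicing, was at 9.16 and 9.88 in siControl and 9.08 and 8.86 in siUPF1. The last 3 kept their groups apart, ZNF326 with lower and the others with higher siUPF1 values, and none was called. Of all genes 18.5% stood apart with lower and 37.5% with higher siUPF1 values.

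Among sequence-specific regulators, ZNF143, which acts at promoters of small nuclear RNA and many other genes, was at 5.50 and 5.88 FPKM in siControl and 6.04 and 4.69 in siUPF1. ZNF217, an oncogene amplified in breast cancer, was at 7.20 and 7.15 in siControl and 8.29 and 7.99 in siUPF1 (difference 0.16, SE 0.0892). In the vector groups ZNF217 was higher, at 11.4 and 9.65 in MYC and 9.84 and 11.7 in MYC-UPF1. ZNF410, known as an activator of the remodeller gene CHD4, was at 8.71 and 9.17 in siControl and 9.77 and 9.60 in siUPF1, while CHD4 was at 38.8 and 40.1 and at 40.7 and 48.0. In ZNF217, ZNF410 and CHD4 both siUPF1 libraries were higher than both controls, as in 37.5% of all genes, and none was called. Most windows of ZNF410 recur in another gene, as given above, and a link between ZNF410 and CHD4 was not tested.

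The retroelement repressors ZNF91 and ZNF93, which restrain SVA and LINE-1 elements, were not called either. ZNF91, with 31 C2H2 patterns, was at 8.97 and 7.36 FPKM in siControl and 9.27 and 8.18 in siUPF1. ZNF93 was at 11.2 and 12.2 in siControl and 14.1 and 12.1 in siUPF1. ZNF445, which protects imprinted regions, was at 6.61 and 6.53 in siControl and 6.83 and 8.01 in siUPF1. The groups overlapped in ZNF91 and ZNF93. They stood apart in ZNF445 by 0.15 (SE 0.104), with siUPF1 higher, as in 37.5% of all genes.

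The partners of the KRAB domain were measured beside the ZNF genes in a list of 31 co-repressor and heterochromatin genes. Of these 3 were called after depletion (9.68%), 2 higher and 1 lower, with a median of -0.012, and none with MYC-UPF1, beside 21.5% and 1.43% of all genes. Without siUPF1 replicate 1 the count after depletion was 11 (43.6% of all genes were called), and with MYC-UPF1 it was 3 without MYC replicate 1 (5.87% of all genes) and 1 without MYC-UPF1 replicate 1 (3.55%). TRIM28, the central co-repressor, was at 134.6 and 139.1 FPKM in siControl and 138.0 and 161.5 in siUPF1, and SETDB1 was at 9.44 and 10.4 and at 10.6 and 10.8. TRIM28 overlapped between the groups, SETDB1 was higher in both siUPF1 libraries by 0.10, as 37.5% of all genes were higher in both, and neither was called. Per length, TRIM28 stood above every ZNF gene in these 4 libraries.

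The genes that rose were UHRF1, which maintains DNA methylation, and MPHOSPH8, a subunit of HUSH. UHRF1 rose from 15.3 and 16.1 FPKM in siControl to 20.8 and 22.3 in siUPF1 (difference 0.43, adjusted p = 0.088 in limma). MPHOSPH8 rose from 7.54 and 7.89 to 9.36 and 10.9 (0.35, adjusted p = 0.143). In both genes the siUPF1 libraries lay above both controls, in MPHOSPH8 with a spread at least as wide as the gap, and with the GC and length trend taken away the differences were 0.33 and 0.41, both called.

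Related zinc finger families at the same limit of 3 FPKM gave small counts. Of 35 ZBTB, ZSCAN, ZKSCAN and ZFP genes 3 were called after depletion, all higher, with a median of 0.060, and none with MYC-UPF1, beside 21.5% and 1.43% of all genes. The count after depletion was 1 without siControl replicate 1, 11 without siUPF1 replicate 1 and 5 without siUPF1 replicate 2, where 10.6%, 43.6% and 21.6% of all genes were called. Of 11 KLF and SP genes 2 were called lower after depletion (against 5.51% of all genes) and 1 higher with MYC-UPF1 (against 0.619%). These families were not tested against the ZNF genes.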

How the data were processed

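Gene levels in 8 libraries of Huh7 cells, 2 per group, were analysed. Per the labels and the methods, the authors made stranded poly(A) libraries, read them in pairs on a NovaSeq, trimmed them with Trimmomatic 0.38, aligned them to hg19 with HISAT2 2.1.0, assembled them with StringTie 1.3.4d on NCBI annotation and deposited FPKM per gene. All 17076 genes were above 0 in every library. Depth is unknown, since the commonest ratio between libraries covered 0.375% of 1335 low genes and gave no whole reads. The number of libraries limits the precision.

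From the deposited FPKM, log2(FPKM + 1) was fitted in limma 3.58.1 (R 4.3.3, lmFit, eBayes with trend) for genes at a mean of at least 0.5 FPKM over the 4 libraries of a comparison. All p-values are two-sided, adjusted by Benjamini-Hochberg over all genes tested. An exact permutation test of 2 against 2 libraries cannot go below 0.333. The fit was tested on simulated data. Effects were compared in a fit of 8 libraries. Symbols were matched to GENCODE 44 on GRCh37 (15735 of 17076). GC content, C2H2, KRAB and SCAN patterns were read from the annotated transcripts and their reading frames, with KRAB and SCAN scored by profiles at 10 bits or more. Tables were read with pandas 2.3.3 in Python 3.11.15, and matplotlib 3.10.9 drew the figures.

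Named genes were the 10 highest members, the 10 largest rises and falls among calls with separate groups, a list of members with known roles, those nearest the limit, and UPF1. The members and lists were chosen with earlier results of these data known. Replicate numbers were checked for pairing by the deviations of same-numbered libraries. These correlated at -0.130 over all genes and -0.027 over the members for depletion, and at -0.569 and -0.831 for overexpression. Libraries of equal number thus did not deviate together. The check runs over genes whose differences also moved with GC content, so it cannot show whether equal numbers share a culture. The values of 1 listed co-repressor gene are not reported here.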

Additional observations from a re-analysis of the deposited data

How the results depend on the processing

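Of 18 named calls, 3 (ZNF428, ZNF69 and ZNF875) held under all alternatives run, and none changed direction. In the count of ZNF genes called after depletion (32, 17.1%), removing the GC and length trend gave 62 (33.2%, against 23.3% of all genes). The replicate block with that removal gave 53 (28.3%, against 21.8% of all genes). A limit of 1 FPKM for the ZNF genes gave 62 of 362 (17.1%) and a limit of 5 FPKM 20 of 109 (18.3%). Their median difference (0.081) was 0.040 at a mean of 5 FPKM or more, 0.012 after quantile normalization and 0.041 after median centring. The count over all genes (2908, 21.5% of 13535) was 1862 at 5 FPKM (23.6% of 7898). The related families (3 of 35 called) gave 1 of 17 at 5 FPKM, 6 after quantile normalization, 6 with the GC trend removed and 5 with the block as well. Of all genes 23.6%, 20.9%, 23.3% and 21.8% were called in these fits, in the same order. For overexpression the count of ZNF genes (1) was 0 with no minimum, at 5 FPKM and at a limit of 5 FPKM, and 3 with the GC trend removed, and the count over all genes (189) was 409 with no minimum, 49 at 5 FPKM and 359 with the GC trend removed. For the difference between the effects 2 genes passed the adjusted threshold with the GC trend removed. Where an FPKM limit changed, the number of genes tested changed with it. The cause of the shifts in share and in median was not tested.

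The replicate block, though libraries of equal number did not deviate together, gave 23 ZNF genes for depletion (19 higher), 12.3% against 19.1% of all genes. It gave 0 for overexpression and 0 for the difference between the effects. A crossed block, chosen after seeing the data, gave 11 ZNF genes, 1227 genes in all and 2 co-repressor genes for overexpression. Together with the GC removal it gave 7 (3.74%, against 5.79% of all genes), 729 and 1. For depletion these settings gave 61 ZNF genes (32.6%, against 25.2% of all genes) and 7 of the related families. For the difference between the effects they gave 2. Counting ZNF genes with at least 3 C2H2 patterns, also chosen after seeing the data since no protein table was given, changed no count by over 1.5 times.

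Leaving out each library in turn gave 10 to 64 ZNF genes for depletion and 0 to 4 for overexpression, medians of 0.046 to 0.11 and of -0.050 to 0.037, and 1435 to 5896 and 220 to 778 genes in all. Co-repressor genes ran from 2 to 11 and from 0 to 3, related families from 1 to 11 and stayed at 0, and the difference between the effects from 0 to 2. With 2 libraries a group and unknown depth, small changes of genes near 3 FPKM cannot be resolved.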
